A study of Rattus norvegicus with 2 samples.

Results

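The genes of cholesterol and fatty acid synthesis were examined in 2 populations of natural killer (NK) cells from rat spleen. NK cells are innate lymphocytes that lyse virus-infected and tumour cells. The set holds 33 named genes, namely the enzymes from acetyl-CoA to cholesterol, the regulators of sterol-controlled transcription, a sterol carrier and the enzymes that build, lengthen and desaturate fatty acids. A gene was included by its symbol in the platform annotation and took its value from the probe set that was brightest by mean log2 signal over both arrays. Of the 33 genes, 32 had a probe set of their own among the 14217 genes of the array, through 55 of its 31099 probe sets, and Hmgcs1 was not analysed here. A gene was counted as measured when at least 1 array exceeded a floor of 20.4 units, the median of all non-control signals. This held for 29 of the 32 genes and for 9114 of all 14217 genes.

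Both populations came from PVG.7b rats aged 8 to 12 weeks, of which 9 were used in the study, and the pooling of their cells was not given in the sources used here. Spleen mononuclear cells were depleted with antibodies to the TCR alpha-beta, CD68, CD5, the kappa light chain and CD45RA, and CD3- NKR-P1A+ cells were sorted as positive for either NKR-P1B, an inhibitory lectin-like receptor, or Ly49s3, an activating one, but not for both. The sorts were above 90% pure per the labels, and the labels name no treatment. Each population was hybridised to 1 array, so there are no replicates and no test between the populations was possible. The values below, written as those of the cells, describe these 2 arrays, and how far they would vary between rats or sorts is not known.

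Cholesterol is made from acetyl-CoA through mevalonate, farnesyl diphosphate and squalene, and fatty acids from acetyl-CoA through malonyl-CoA. Many of these enzymes are transcribed under the control of the sterol regulatory element-binding proteins (SREBPs), encoded by Srebf1 and Srebf2. SREBPs are held in the endoplasmic reticulum by the escort protein SCAP and the INSIG proteins while sterols are plentiful, and are cleaved in the Golgi when sterols are scarce. In lymphocytes this programme is known to supply membrane lipids for growth and division, and in activated NK cells SREBP activity is known to bear on metabolism.

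Cholesterol enzymes had lower signals in NKR-P1B+ cells in all 16 measured cases on the deposited scale (3 of 16 with the spike scaling described next). Squalene epoxidase, fatty acid synthase and stearoyl-CoA desaturase showed the largest differences, by 1.55-fold to 1.69-fold, whereas Insig2, Srebf1 and Elovl5 were higher in NKR-P1B+ cells. In all, 24 of the 29 measured genes (82.8%) were higher in Ly49s3+ cells and 5 in NKR-P1B+ cells on the deposited scale (5 and 24 with spike scaling). Among all 9114 measured genes, 52.2% were higher in Ly49s3+ cells and 47.6% in NKR-P1B+ cells on the deposited scale (8.32% in Ly49s3+ cells with spike scaling). One of the 24, Mvd, passed the floor in Ly49s3+ cells alone, so its direction was fixed by the filter. Of the 28 genes above the floor on both arrays, 23 (82.1%) were higher in Ly49s3+ cells on the deposited scale, against 51.2% of all genes above it on both, and so were all 15 such cholesterol enzymes. Differences are given as log2 of NKR-P1B+ minus log2 of Ly49s3+. Their median was -0.23 over the 29 genes and -0.02 over all measured genes. The differences were small. Just 3 of the 29 genes (10.3%) were at least 1.5-fold higher in Ly49s3+ cells, against 5.72% of all measured genes, and none was in NKR-P1B+ cells, against 5.06%. With spike scaling this count turned round. None of the 29 was then at least 1.5-fold higher in Ly49s3+ cells, against 1.03% of all measured genes, and Insig2, Srebf1 and Elovl5 were in NKR-P1B+ cells, against 38% of all measured genes.

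The direction depends on how the arrays are scaled. The deposited values share 1 trimmed mean, but 16 of 17 poly-A spikes, bacterial transcripts added to the RNA before labelling, were brighter on the array of Ly49s3+ cells, with a median log2 difference of -0.53. Scaling to these spikes moved the median of all measured genes from -0.017 to 0.497, and 24 of the 29 genes were then higher in NKR-P1B+ cells. Spike scaling shifts every gene by the same amount. Apart from the effect of the floor, positions relative to the median of all measured genes are thus kept by construction. The set lay at -0.22 on the deposited scale and -0.20 with the spikes, with 23 of 29 genes below that median on both. Here and below, a match of both scales in this position is no separate evidence. Directions below are on the deposited scale, and each group is also placed against the median of all genes.

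**Figure D1:**
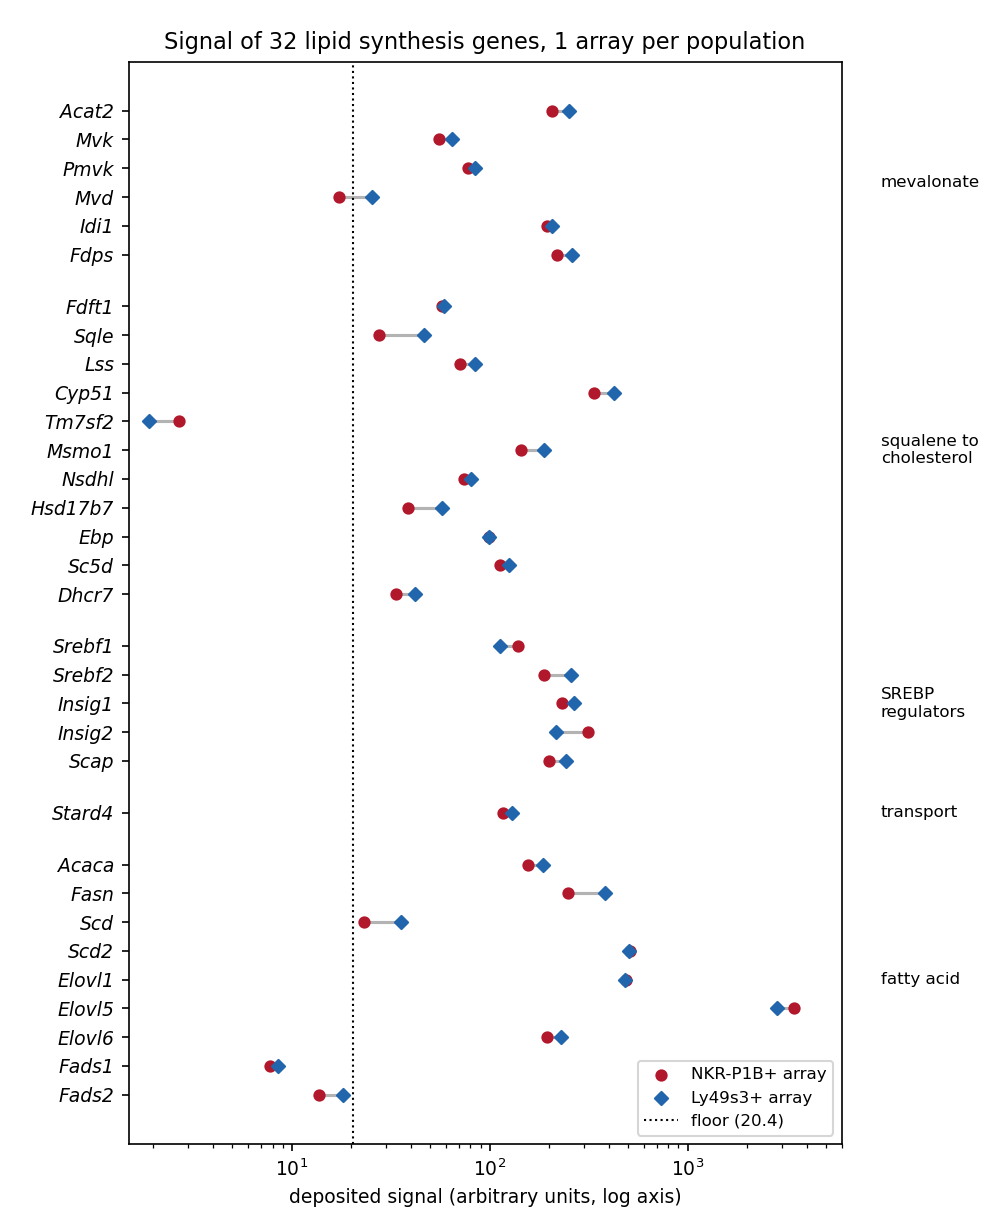
Deposited signal (arbitrary units, log axis) of the 32 genes with a probe set on the NKR-P1B+ array (red circles) and the Ly49s3+ array (blue diamonds), grouped by role, with the floor of 20.4 as a dotted line. The blue diamond lies to the right for all 16 measured cholesterol enzymes on the deposited scale (3 of 16 with spike scaling), and the red circle for Srebf1, Insig2, Scd2, Elovl1 and Elovl5.

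The spread between probe sets of the same gene served as a gauge of measurement error. These probe sets read the same RNA on the same arrays, so the spread holds no variation between animals, sorts or arrays. The SD of a log2 difference, from 3560 pairs of probe sets, was 0.36 for genes with signals from 20.4 to 50 and 0.17 above 500. By this gauge 11 of the 29 genes (37.9%) were higher in Ly49s3+ cells by more than 1 SD, against 19.9% of all measured genes. In NKR-P1B+ cells 3 genes (10.3%) were higher by more than 1 SD, against 18.1% of all measured genes. The other 15 genes lay within 1 SD, among them Mvd by its floored value. With spike scaling no gene of the set was higher by more than 1 SD in Ly49s3+ cells, against 2.47% of all measured genes, and 19 (65.5%) were in NKR-P1B+ cells, against 75.4%. Of the 29 genes, 15 (51.7%) fell in the 25% of measured genes with the lowest differences, below -0.21.

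In the first segment of the pathway, all 6 measured enzymes had a higher signal in Ly49s3+ cells on the deposited scale (1 of 6 with spike scaling), and all 6 were below the median of all genes on both scales. The 6 include Mvd, whose direction the filter fixed, and the other 5 were above the floor on both arrays. Acat2, the cytosolic thiolase that condenses 2 acetyl-CoA molecules, had a signal of 205.5 in NKR-P1B+ cells and 253.2 in Ly49s3+ cells, a 1.23-fold difference. Fdps, the synthase of farnesyl diphosphate, had 219.6 and 261.7, a 1.19-fold difference. These 2 differences exceeded the probe-set spread of 0.22. The kinases Mvk, with 55.8 and 64.5, and Pmvk, with 78.1 and 83.9, phosphorylate mevalonate in turn. The isomerase Idi1 had 195.8 and 206.8, and its other probe set had 131.6 and 162.6. The differences of Mvk, Pmvk and Idi1 were 1.16-fold, 1.07-fold and 1.06-fold and lay within the spread. Mvd, the decarboxylase that completes isopentenyl diphosphate, was below the floor in NKR-P1B+ cells, at 17.3, and had 25.3 in Ly49s3+ cells. Its ratio against the floor was at least 1.24-fold, and this lower bound lay within the spread of 0.36. With the floor at the 35th percentile the log2 difference of Mvd was -0.55, past that spread.

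From squalene onward, all 10 measured enzymes were higher in Ly49s3+ cells on the deposited scale (2 of 10 with spike scaling), and 9 of 10 were below the median of all genes on both. Their median log2 difference was -0.28. Squalene epoxidase, encoded by Sqle, catalyses a rate-limiting oxidation of the sterol branch. It had a signal of 27.5 in NKR-P1B+ cells and 46.5 in Ly49s3+ cells. The 1.69-fold difference was the largest of the 29 genes and placed Sqle in the lowest 3.1% of measured genes, on 1 probe set close to the floor. Hsd17b7, a reductase in the removal of the sterol C4 methyl groups, had 38.9 and 57.7, a 1.48-fold difference. Its other probe set, at 19.0 and 28.2, passed the floor in Ly49s3+ cells alone, so its direction was fixed by the filter. Msmo1, the C4-methylsterol oxidase of the same step, had 143.6 and 187.8, a 1.31-fold difference past the spread of 0.26.

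Cyp51, the lanosterol demethylase, had 335.7 and 426.0, a 1.27-fold difference past the spread of 0.22. Its other probe set had 70.3 and 69.9, a log2 difference of 0.01, so the probe sets of Cyp51 disagree. The remaining measured enzymes of this segment differed by less than the spread. Lss, which closes squalene epoxide into lanosterol, had 70.7 and 84.1, and Dhcr7, the dehydrocholesterol reductase, had 33.7 and 41.9. Nsdhl, a dehydrogenase of C4 demethylation, had 74.3 and 80.5, and Ebp, the sterol isomerase, had 98.9 and 99.7. Ebp was thus 1.01-fold apart, next to no difference.

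Fdft1 and Sc5d also lay within the spread on the probe sets used, but each had another probe set that did not. Fdft1, the squalene synthase, had 57.5 and 59.1 on the probe set used and 40.1 and 69.6 on the other. Sc5d, the sterol C5 desaturase, had 113.0 and 125.9, while its other probe sets gave 79.8 against 69.7 and 18.9 against 38.9. The log2 differences of Sc5d thus ran from -0.93 to 0.20. The lowest came from a probe set above the floor in Ly49s3+ cells alone, so its direction was fixed by the filter. Tm7sf2, a sterol C14 reductase, was below the floor on both arrays at 2.7 and 1.9, and no ratio was taken.

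**Figure D2:**
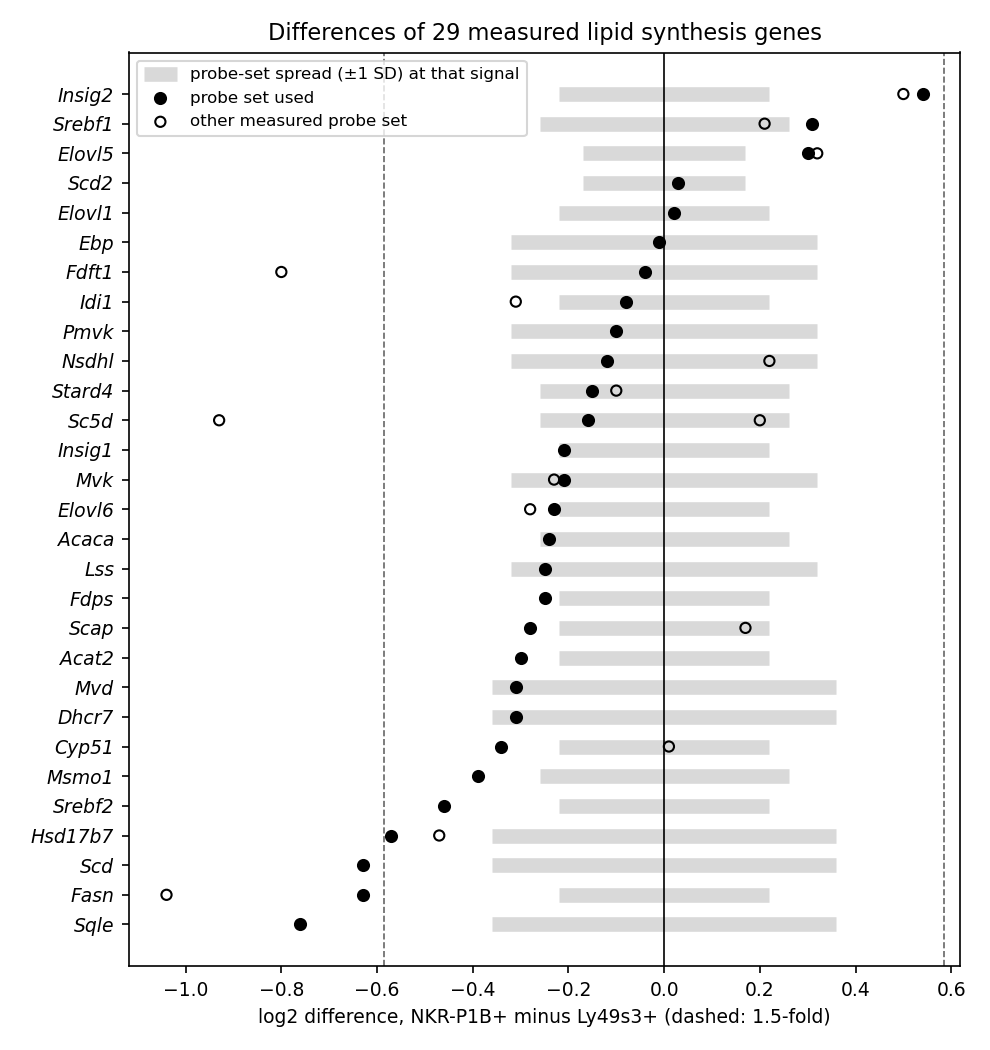
Log2 difference, NKR-P1B+ minus Ly49s3+, of the 29 measured genes on the deposited scale, ordered by the probe set used (filled circles), with other measured probe sets as open circles, the spread of ±1 SD between probe sets of a gene as grey bars and 1.5-fold as dashed lines. Sqle, Fasn and Scd lie past the dashed line on the left and no gene lies past it on the right; with spike scaling these 3 were at -0.23, -0.10 and -0.10, and Insig2, Srebf1 and Elovl5 lay past the right line at 1.07, 0.84 and 0.83.

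The 5 genes of SREBP control were split. On the deposited scale 3 were higher in Ly49s3+ cells and 2 in NKR-P1B+ cells (0 and 5 with spike scaling), with 3 below and 2 above the median of all genes on both scales. Srebf2, whose product SREBP-2 acts mainly on cholesterol genes, had 188.4 in NKR-P1B+ cells and 259.2 in Ly49s3+ cells, a 1.38-fold difference past the spread of 0.22. Srebf1, whose products act on fatty acid and cholesterol genes, ran the other way with 139.5 and 112.9, a 1.24-fold difference past the spread of 0.26. Its other probe set, at 23.6 and 17.1, passed the floor in NKR-P1B+ cells alone, so its direction was fixed by the filter. The difference between the behaviour of the 2 genes was not tested.

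The INSIG genes were also split. Insig1, itself a known target of SREBPs, had 231.1 in NKR-P1B+ cells and 266.5 in Ly49s3+ cells, a 1.15-fold difference within the spread of 0.22. Insig2, which is known to be less dependent on SREBPs, had 314.8 and 216.4. This 1.45-fold difference toward NKR-P1B+ cells was the largest in that direction among the 29 genes. The other probe set of Insig2 had 188.4 and 133.5, with log2 differences of 0.54 and 0.50 on the 2 probe sets. Scap had 200.4 and 242.9, a 1.21-fold difference toward Ly49s3+ cells, but its dimmer probe set had 34.2 and 30.5 in the other direction. The sterol carrier gene Stard4 had 116.4 and 129.4, within the spread, and its next probe set had 97.5 and 104.6.

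Promoter sequences from RefSeq (GRCr8) were examined because most of these genes differed in the same direction relative to all genes. They were given for 26 of the 33 genes, in 27 windows since Srebf1 has 2 annotated starts. None was given for Pmvk, Fdft1, Sqle, Stard4, Acaca, Fasn or Elovl6. The 250 bases before each start were searched on both strands for TCACNCCAC, a core form of the sterol regulatory element, for CCAAT, the box bound by NF-Y, a known partner of SREBPs, and for the E-box CACGTG, which SREBPs can also bind. CCAAT stood in 20 of the 27 windows (74.1%), against 34% of all 33469 promoter windows and 36% of the 8612 windows of measured genes. Of the 15 windows of cholesterol enzymes, 12 held it and 8 held it at least 2 times (53.3%, against 12.9% for windows of measured genes). CACGTG stood in 4 of the 27 windows (14.8%), those of Insig1, Scap, Sc5d and Elovl5, against 8.45% of windows of measured genes. TCACNCCAC was in none of the 27 windows and in 0.974% of all promoters. The shorter TCACNCCA, chosen after the sequences were seen, was in the windows of Srebf2 and Msmo1 (7.41%, against 3.24% of all promoters). These counts describe letters in a window and not bound sites. Of the 3 genes at least 1.5-fold apart on the deposited scale, Sqle and Fasn had no window and that of Scd held none of these motifs. Every TCACNCCAC also counts as a TCACNCCA.

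Shown 5′ to 3′ in the direction of transcription, each sequence is the 250 bases before the annotated start, with CCAAT or its complement ATTGG and CACGTG in capitals. Msmo1 and Hsd17b7 are shown as sterol enzymes with large differences among those given a window. Srebf2 and Srebf1 are shown as the pair of regulators with opposite directions on the deposited scale, and Insig1 for its E-box. Msmo1 lies at chr16:29746863-29747112 on the plus strand, Hsd17b7 at chr13:84722755-84723004 on the minus strand and Srebf2 at chr7:115543057-115543306 on the plus strand. The windows of Srebf1 lie at chr10:45529165-45529414 and chr10:45519011-45519260 and that of Insig1 at chr4:8057770-8058019, all on the minus strand.
Msmo1: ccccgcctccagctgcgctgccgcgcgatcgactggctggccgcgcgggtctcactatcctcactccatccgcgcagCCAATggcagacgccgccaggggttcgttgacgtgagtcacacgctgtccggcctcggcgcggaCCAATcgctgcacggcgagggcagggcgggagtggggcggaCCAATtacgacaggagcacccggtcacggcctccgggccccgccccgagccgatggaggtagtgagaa
Hsd17b7: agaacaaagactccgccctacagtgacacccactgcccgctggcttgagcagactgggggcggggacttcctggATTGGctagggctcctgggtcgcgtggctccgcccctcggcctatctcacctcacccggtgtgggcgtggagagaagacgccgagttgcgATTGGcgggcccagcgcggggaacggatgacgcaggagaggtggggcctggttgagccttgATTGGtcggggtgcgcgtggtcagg
Srebf2: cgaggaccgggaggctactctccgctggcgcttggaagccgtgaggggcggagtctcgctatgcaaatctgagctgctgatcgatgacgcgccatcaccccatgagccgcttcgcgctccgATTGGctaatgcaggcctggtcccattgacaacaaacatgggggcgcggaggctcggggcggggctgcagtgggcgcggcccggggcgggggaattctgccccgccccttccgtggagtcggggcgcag
Srebf1, window 1: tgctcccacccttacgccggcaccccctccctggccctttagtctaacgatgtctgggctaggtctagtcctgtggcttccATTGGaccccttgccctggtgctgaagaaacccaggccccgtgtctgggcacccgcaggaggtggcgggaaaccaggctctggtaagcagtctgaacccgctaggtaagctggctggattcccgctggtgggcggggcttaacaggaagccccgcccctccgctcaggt
Srebf1, window 2: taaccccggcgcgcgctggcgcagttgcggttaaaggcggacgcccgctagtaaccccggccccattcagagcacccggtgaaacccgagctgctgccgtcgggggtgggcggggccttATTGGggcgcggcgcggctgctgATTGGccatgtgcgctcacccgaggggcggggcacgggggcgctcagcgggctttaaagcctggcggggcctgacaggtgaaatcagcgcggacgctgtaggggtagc
Insig1: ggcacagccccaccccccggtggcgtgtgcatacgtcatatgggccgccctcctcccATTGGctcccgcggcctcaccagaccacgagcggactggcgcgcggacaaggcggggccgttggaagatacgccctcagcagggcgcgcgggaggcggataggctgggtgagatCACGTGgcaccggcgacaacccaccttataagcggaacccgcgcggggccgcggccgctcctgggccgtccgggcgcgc
Msmo1 and Hsd17b7 each hold 3 CCAAT boxes, forward in Msmo1 and as the complement in Hsd17b7. Their first printed bases lie 173, 109 and 68 bases before the start of transcription in Msmo1 and 176, 86 and 25 bases before it in Hsd17b7. Srebf2 holds 1, at 129 bases, and the windows of Srebf1 hold 1 and 2. Insig1 holds 1 CCAAT complement at 193 bases and its E-box at 79 bases. On the deposited scale 5 measured genes were higher in NKR-P1B+ cells. Of these, Insig2 (at 61 bases), Srebf1, Elovl5 and Scd2 held CCAAT or its complement, and Elovl1 did not. A relation between the box and the direction was not tested.

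The enzymes of fatty acid synthesis differed among themselves. Of 7 measured, 4 were higher in Ly49s3+ cells and 3 in NKR-P1B+ cells on the deposited scale (2 and 5 with spike scaling), with 4 below and 3 above the median of all genes on both scales. Fasn, the fatty acid synthase that makes palmitate, had 248.8 in NKR-P1B+ cells and 385.0 in Ly49s3+ cells. This 1.55-fold difference exceeded the spread of 0.22, and Fasn stood in the lowest 4.8% of measured genes. The other probe set of Fasn had 33.8 and 69.5, a 2.06-fold difference in the same direction. Acaca, the carboxylase that makes malonyl-CoA for Fasn, had 156.6 and 185.3, a 1.18-fold difference within the spread.

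Scd, which encodes stearoyl-CoA desaturase 1, had 23.1 and 35.7, a 1.55-fold difference at signals close to the floor. Its paralogue Scd2 had 514.2 and 504.8, a 1.02-fold difference. The other probe sets of Scd2 were below the floor on both arrays, at 8.7 and 18.4, 15.2 and 16.2, and 10.4 and 10.1. Paralogous desaturases can share probe signal, and the split between them is uncertain. The desaturase genes Fads1, at 7.8 and 8.5, and Fads2, at 13.8 and 18.2, were below the floor on both arrays.

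The elongase genes were also mixed. Elovl6, which lengthens palmitate, had 194.5 and 228.9, a 1.18-fold difference toward Ly49s3+ cells just past the spread of 0.22, and its other probe set had 135.7 and 165.0. Elovl5, which lengthens polyunsaturated fatty acids, had 3468.9 and 2823.2. That 1.23-fold difference toward NKR-P1B+ cells exceeded the spread of 0.17, and its dimmer probe set had 42.7 and 34.3. Elovl1, an elongase of very long chains, had 489.3 and 482.1, next to no difference.

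Several probe sets were measured for 14 of the 29 genes. They shared a direction on the deposited scale for 10 genes and disagreed for Cyp51, Nsdhl, Sc5d and Scap. The 10 include Mvk, Hsd17b7 and Srebf1, whose other measured probe set passed the floor on 1 array alone, so the filter fixed its direction. Counted as probe sets, 32 of 44 measured ones were higher in Ly49s3+ cells and 12 in NKR-P1B+ cells on the deposited scale. For Mvd, Mvk, Hsd17b7, Sc5d and Srebf1 this includes a probe set whose direction the filter fixed. Probe sets of a gene are not separate members. Other probe sets of Acaca, Lss, Mvk, Scd2, Srebf2 and Stard4 were below the floor on both arrays and were not counted. Shares over all genes or probe sets of the array were not computed for these 2 counts. When the dimmest measured probe set stood for each gene, 14 of 16 cholesterol enzymes were higher in Ly49s3+ cells, against 51.8% of all measured genes. The 14 include Mvd, Mvk, Hsd17b7 and Sc5d on probe sets above the floor in Ly49s3+ cells alone, so the filter fixed their direction. In that setting 5 genes in all, Sc5d among them, were at least 1.5-fold higher there, against 6.25% of all measured genes.

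**Figure D3:**
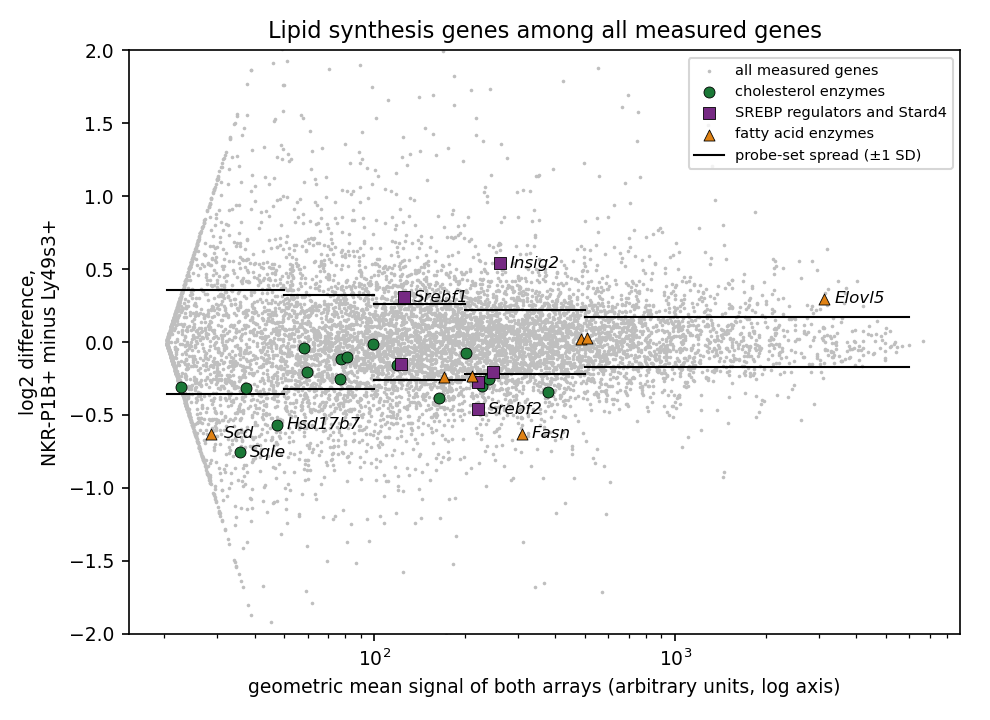
Log2 difference, NKR-P1B+ minus Ly49s3+, against the geometric mean signal (arbitrary units, log axis) for the 9114 measured genes on the deposited scale (grey; 29 genes beyond ±2 are not drawn), with cholesterol enzymes (green circles), SREBP regulators and Stard4 (purple squares) and fatty acid enzymes (orange triangles). Black lines give ±1 SD between probe sets of a gene; most coloured points lie between 0 and -0.46, with Insig2, Srebf1 and Elovl5 above the upper lines.

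Other genes of lipid metabolism, listed by role, gave smaller shifts. Of 82 such measured genes, 46 were higher in Ly49s3+ cells and 36 in NKR-P1B+ cells, with a median log2 difference of -0.06 on the deposited scale. Of all measured genes, 52.2% were higher in Ly49s3+ cells on that scale, and the counts of each list below stand against the same share. Among enzymes that draw on the pathway for isoprenoids, such as prenyl transferases and the makers of dolichol and ubiquinone, 5 of 12 were higher in Ly49s3+ cells, with a median of 0.04 against -0.25 for the 16 cholesterol enzymes. That difference between the lists was not tested. Genes of SREBP processing and sterol sensing outside the set had a median of 0.02, with 3 of 8 higher in Ly49s3+ cells. Genes of sterol uptake, trafficking, storage and efflux had a median of -0.05, with 8 of 16. Fatty acid oxidation genes had a median of -0.06, with 11 of 19, and other fatty acid enzymes -0.13, with 15 of 22. Of the 82 genes, 76 were above the floor on both arrays. The filter fixed the direction of the rest. Vldlr, Hsd3b7, Mecr and Acsl3 passed the floor in Ly49s3+ cells alone, and Mlxipl and Agpat1 in NKR-P1B+ cells alone. With spike scaling each of these 5 lists had most of its members higher in NKR-P1B+ cells, as did all measured genes, of which 8.32% were higher in Ly49s3+ cells. Relative to the median of all genes, the medians of the lists then lay between -0.12 and 0.06.

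Of those 82 genes, 3 were at least 1.5-fold apart on the deposited scale, against 10.8% of all measured genes. Acss2, which makes cytosolic acetyl-CoA from acetate and is a known SREBP target, had 563.2 in NKR-P1B+ cells and 76.1 in Ly49s3+ cells. This 7.40-fold difference ran against that of the cholesterol enzymes on the deposited scale. The rest of its list, the suppliers of acetyl-CoA and NADPH, comprised 4 measured genes that were all higher in Ly49s3+ cells on the deposited scale (0 of 4 with spike scaling). The shares of all measured genes were 52.2% and 8.32%. Hacd1, a dehydratase of fatty acid elongation, had 22.4 and 39.6, a 1.77-fold difference toward Ly49s3+ cells. Vldlr, a lipoprotein receptor, had 19.0, below the floor, and 33.6, at least 1.65-fold toward the same array. The filter fixed the direction of Vldlr.

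The identity of the sorted cells and their division state were read from marker lists. Klrb1b, which encodes NKR-P1B, had 1398.6 in NKR-P1B+ cells and 29.4 in Ly49s3+ cells, and the NK genes Klrd1 and Prf1 were high on both, at 3149.1 and 3150.7 and at 4023.5 and 3006.3. Proliferation genes differed in the same direction as most lipid synthesis genes. Of 40 measured, 34 were higher in Ly49s3+ cells on the deposited scale (16 of 39 with spike scaling), against 52.2% of all measured genes (8.32% with spike scaling). The 34 include Kif2c, Cenpa and Tyms, which passed the floor in Ly49s3+ cells alone, so the filter fixed their direction. The other 37 of the 40 were above the floor on both arrays. Their median was -0.37, or -0.36 relative to all genes on both scales. Their summed signal was 10720 in NKR-P1B+ cells and 11948 in Ly49s3+ cells. Markers of other cells were below the floor in part and measured in part. Summed signals in NKR-P1B+ and Ly49s3+ cells were 3219 and 1549 for 10 T cell genes, of which Cd8a, also carried by rat NK cells, gave 2151.1 and 767.4. They were 154 and 91.3 for 8 B cell genes, 1048 and 907 for 6 plasma cell genes, 453 and 235 for 13 macrophage genes and 2882 and 2067 for 7 dendritic cell genes. For 8 neutrophil and mast cell, 6 erythroid, 5 platelet and 7 stromal genes they ranged from 36.5 to 358. Of these lists, 7 of 10 T cell, 2 of 8 B cell, 5 of 6 plasma cell, 2 of 13 macrophage and 6 of 7 dendritic cell genes were measured. Cd3e, Cd8b, Cd79b, Ms4a1, Cd68 and Csf1r were below the floor on both arrays. Other markers of the T cell, B cell, plasma cell, macrophage and dendritic cell lists were above it. On the deposited scale 4 of 7 T cell, both B cell and all 5 plasma cell genes measured were higher in NKR-P1B+ cells. So were both macrophage genes and 4 of 6 dendritic cell genes, against 47.6% of all measured genes. Among those higher were Cd5 at 92.7 and 40.8, Cd6 at 273.1 and 179.4, Cd22 at 103.0 and 52.9 and Jchain at 98.1 and 33.4. Lyz2 had 356.3 and 133.0 and the MHC class II gene RT1-Da 345.8 and 97.7. The other measured probe set of Jchain had a log2 difference of 0.12, and Xbp1 and Prdm1 had 0.01 and 0.10. Blnk, Mzb1, Hmox1 and Cd86 passed the floor in NKR-P1B+ cells alone, so the filter fixed their direction. The T cell genes Cd3g, at 22.3 and 42.9, and Cd28, at 30.6 and 36.0, ran the other way. So did RT1-Ba, another MHC class II gene, at 30.2 and 36.7. The log2 differences of its 4 measured probe sets ran from -0.28 to 0.29. Cd4, at 3.3 and 20.6, and the dendritic cell gene Batf3, at 4.2 and 83.2, passed the floor in Ly49s3+ cells alone. The filter thus fixed the direction of both. These markers were named after their values were seen. The part of dividing cells or other cell types in the lipid gene differences was not tested, and in bulk RNA fewer cells expressing a gene and less RNA per cell cannot be told apart.

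**Figure D4:**
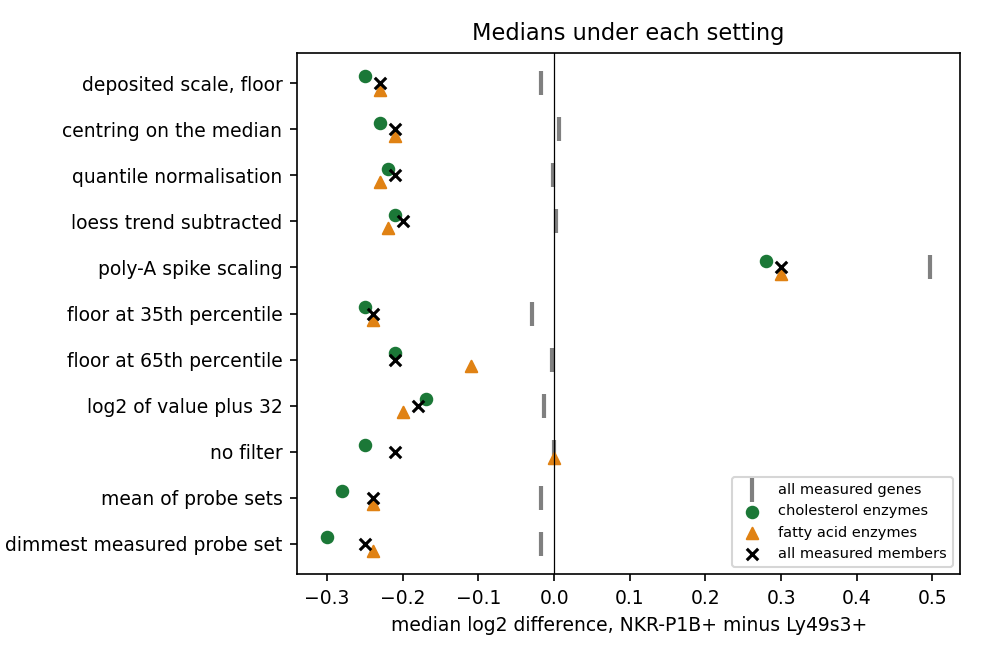
Median log2 difference, NKR-P1B+ minus Ly49s3+, of all measured lipid synthesis genes (crosses), cholesterol enzymes (green circles), fatty acid enzymes (orange triangles) and all measured genes (grey bars) on the deposited scale and under 10 other settings. Cholesterol enzymes lie left of all genes in every row, by 0.16 to 0.29, and to the right of 0 only with poly-A spike scaling. Without the filter, fatty acid enzymes and all genes are both at 0.00. Genes below the floor on both arrays then have a difference of 0 by construction, so this match is fixed by the floor.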

How the data were processed

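Total RNA (3 ug per array, per the labels' protocols) was labelled with biotin and hybridised to Affymetrix rat expression arrays, 1 per population. The deposited table holds 1 linear intensity per probe set and array. MAS5 is the tool named in the submitters' processing notes, and neither its version nor its scaling target was given in the sources used here. Median intensities were 19.6 for NKR-P1B+ and 21.3 for Ly49s3+ cells, and the trimmed means were equal. The direction of a difference follows from the 2 arrays, and genes were not centred. The 3' to 5' ratio of the actin controls was 11.87 and 13.16, and that of Gapdh 2.84 and 2.77, so both arrays have less signal toward the 5' end. The number of arrays limits the precision.

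Probe sets with several gene symbols or none were left out of gene results. The gene numbers of all 32 genes of the set matched RefSeq (GRCr8), with 32 unchanged symbols. Values were floored at the 50th percentile of non-control intensities, 20.4, and converted to log2. With 1 array per population no p-value was computed. Genes at least 1.5-fold apart were counted, and ratios against the floor are lower bounds. Precision was gauged by pairs of probe sets of a gene above the floor on both arrays, as the root mean square of the difference between their log2 differences divided by the square root of 2. The steps were tested on simulated data. All members were named, and of the lists of other lipid genes those at least 1.5-fold apart, up to 3 per direction. Proliferation and marker lists were given by counts and sums, with a few markers named. The members and lists were chosen with earlier results of these data known, and no count of them is independent evidence. Other settings were median centring, quantile normalisation, a loess trend (span 0.3), spike scaling, floors at the 35th and 65th percentiles, log2 of the value plus 32, no filter, and other choices of probe set. Python 3.11.15, pandas 2.3.3, numpy 2.4.6 and statsmodels 0.14.6 were used.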

Additional observations from a re-analysis of the deposited data

How the results depend on the processing

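Under 10 other settings, 47 of 60 values of the set (counts and medians) stayed close to the main ones, a count within 1.5 times and a median within the probe-set spread divided by the square root of the number of genes. With poly-A spike scaling the counts of genes higher on the NKR-P1B+ and the Ly49s3+ array became 24 and 5. The medians then became 0.30 for all measured genes of the set, 0.28 for cholesterol enzymes and 0.30 for fatty acid enzymes. That scaling moves every gene together, and the cause of the spike difference was not tested. With this scaling 3 genes were again at least 1.5-fold apart, but these were Insig2, Srebf1 and Elovl5 in place of Sqle, Fasn and Scd, all higher in NKR-P1B+ cells. Of all measured genes, 38% were that far apart in this direction. Genes at least 1.5-fold apart numbered 3 on the deposited scale, 1 with the floor at the 65th percentile, 0 with log2 of the value plus 32, which shrinks ratios of low signals, and 5 with the dimmest measured probe set. Of all measured genes, 3.46%, 2.49% and 6.25% were then at least 1.5-fold higher in Ly49s3+ cells. The floor at the 65th percentile left 25 measured genes and gave a fatty acid median of -0.11, and keeping genes below the floor gave 0.00. This 0.00 is the difference that the floor gives to any gene below it on both arrays. Adding 32 gave medians of -0.18 for the set and -0.17 for cholesterol enzymes. The dimmest probe set put 8 genes higher on the NKR-P1B+ array. In that setting the filter fixed the direction of Srebf1 among these 8. It also fixed that of Sc5d among the 5 at least 1.5-fold apart. For single genes, 248 of 286 values stayed within the probe-set spread, and no gene at least 1.5-fold apart changed sign. Genes near the floor, such as Sqle, Scd, Hsd17b7 and Mvd, are the least precise, with a spread of 0.36. No paired analysis was possible because each population has 1 array, and no array could be left out.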
